A study of Mus musculus with 23 samples.

Results

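Testis explants of CD-1 mice that had spent 30 days in organotypic culture (D30) were compared with testes of the same age that had developed in the animal (36.5 days postpartum, dpp). The members are the 5 fresh-tissue libraries that the labels assign to these groups, 3 at D30 and 2 at 36.5 dpp, of 22 distinct libraries in the series. The explants came from 6.5 dpp testes that were put into culture without freezing, in α-MEM with serum replacement, gentamicin and retinol, the retinol being given every 8 days. Several explants were pooled for each culture library after the necrotic centre had been cut away, so a library stands for the outer part of the explants. The 36.5 dpp testes were neither cultured nor frozen, and no transgene or mutation is given for any group. The comparison asks how far the RNA of a testis matured in vitro resembles that of an age-matched testis matured in vivo. The other libraries (6.5, 10.5 and 22.5 dpp, D4, D16 and 1 D30 library from tissue thawed after controlled slow freezing, CSF) entered the fit to estimate the spread and served as side values.

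In the first wave of spermatogenesis, spermatogonia enter meiosis under the action of retinoic acid, pass through the long meiotic prophase as spermatocytes and become haploid spermatids, which build an acrosome and a flagellum and replace their histones first by transition proteins and then by protamines. Sertoli cells nourish the germ cells inside the tubule, peritubular myoid cells surround it, and Leydig cells between the tubules turn cholesterol into androgens. By 36.5 dpp the first wave has reached elongated spermatids in the mouse. In RNA of whole tissue, fewer cells of a type and less RNA per cell cannot be told apart.

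Levels are normalised CPM, the counts of a gene over the library total after TMM scaling in the usual per-million unit, and libraries are always listed in the order of their replicate numbers. A log2 fold change is D30 over 36.5 dpp, with its standard error (SE), from edgeR's quasi-likelihood F test with Benjamini-Hochberg adjustment over 19758 genes. Higher, lower, rose and fell compare D30 with 36.5 dpp and do not mean a change over time in culture. A gene was called strictly when its log2 fold change was at least 2 in size with an adjusted p of at most 0.001, the thresholds of the study, and called broadly when the adjusted p was under 0.05. The totals were 41415343, 39469156 and 39699993 counts at D30 and 33668932 and 38883013 counts at 36.5 dpp. Because no label ties these libraries to separate animals or cultures, the p-values measure the spread between libraries only.

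Between D30 and 36.5 dpp, 1426 genes (7.22%) were strictly higher and 1843 (9.33%) strictly lower in culture, together 16.5% of the genes tested. With the broad call 6117 genes (31%) were higher and 6574 (33.3%) lower, which is 64.2% of the genes tested. The shares of both calls are the background for every count of called list members that follows. The median log2 fold change was 2.49 over the strictly higher genes, -3.4 over the strictly lower genes and -0.029 over all genes. Every strictly called gene had D30 and 36.5 dpp libraries that did not overlap. Over all tested genes, all D30 libraries lay above both 36.5 dpp libraries for 7175 genes (36.3%) and below both for 7325 genes (37.1%), the background for all statements on overlap that follow. The strictly lower genes took 18.3% and 19.8% of all counts at 36.5 dpp against 4.81%, 4.17% and 2.36% at D30. The strictly higher genes took 10.3%, 9.47% and 15.1% of counts at D30 against 1.24% and 1.45% at 36.5 dpp. Since the genes were chosen on these same libraries, the direction of these differences in share follows from the choice. The values only describe how much of the counts lay on the called genes.

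**Figure D1:**
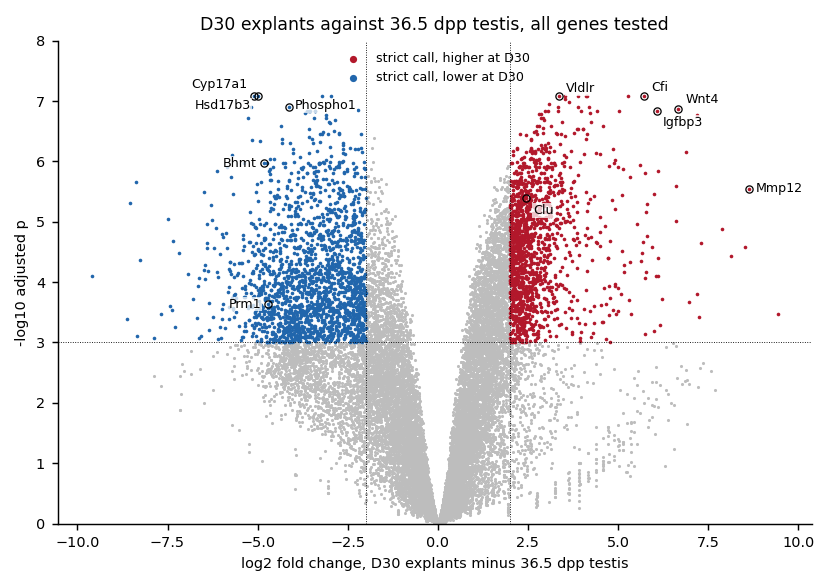
Each point is 1 of the 19758 tested genes, with the log2 fold change of D30 over 36.5 dpp on the x axis and the -log10 of the adjusted p of edgeR's quasi-likelihood test on the y axis. Colours mark the 1426 strictly higher and the 1843 strictly lower genes, and the labels name genes described in the text.

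3 features of the libraries move with these results and their part in them was not tested. The explant libraries were unequal, since the third D30 library had the lowest level of nearly every late germ cell gene and the highest level of many somatic genes described here. The 36.5 dpp libraries differed from each other along transcript length: when expressed genes were put into 3 equal classes of transcript length, in the longest class the median log2 difference of replicate 2 minus replicate 1 was 0.35, against -0.05 in the shortest. Over the same classes the median log2 fold change of D30 against 36.5 dpp ran from -0.15 in the shortest to 0.37 in the longest. The scaling also set the balance of calls, because the TMM factors were 0.6659 and 0.6501 at 36.5 dpp and 0.979, 0.983 and 1.065 at D30. With RLE factors the median of all genes became -0.30 and the strict split 922 higher and 2503 lower. With the library total alone it became 0.58 and the split 3164 higher and 1106 lower, so 26.9% and 74.1% of strict calls were higher against 43.6% in the main fit.

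The spermatid chromatin proteins, which pack the haploid genome, included the genes with the largest falls in mean level, Prm2 and Prm1. All 12 tested members of this list were lower at D30, 6 of them strictly (33.3% of all genes were lower and 9.33% strictly lower), with a median log2 fold change of -4.19 beside -0.029 for all genes. Prm2, encoding protamine 2, had 694, 439 and 121 CPM at D30 and 10866 and 11712 CPM at 36.5 dpp. Prm1, its partner protamine, had 335, 324 and 63.1 CPM at D30 and 7751 and 4836 CPM at 36.5 dpp. Both were present in all explants but at a small share of the in vivo level, with the third explant library the lowest and no overlap between the groups (Prm2: log2 fold change -4.75, SE 0.96, adjusted p = 0.000557, and Prm1: -4.71, SE 0.85, adjusted p = 0.000231). Tnp2, a transition protein that precedes the protamines, had 331, 319 and 74.1 CPM at D30 and 5927 and 3916 CPM at 36.5 dpp (log2 fold change -4.35, SE 0.66, adjusted p = 5.56e-05). Tnp1, the other transition protein, had 275, 366 and 52.7 CPM at D30 and 7295 and 4470 CPM at 36.5 dpp and missed the strict threshold by its adjusted p (log2 fold change -4.67, SE 1.03, adjusted p = 0.00112). In all 4 genes explant replicate 3 lay more than 3-fold below the other explants. Prm3, the neighbour of Prm2, was lower too (12, 8.41 and 3.17 CPM at D30 and 259.5 and 332 CPM at 36.5 dpp; log2 fold change -5.23, SE 0.97, adjusted p = 0.000421). Chd5, a chromatin remodeller that acts during histone removal, had 91.7, 44.5 and 39.9 CPM at D30 and 327 and 989 CPM at 36.5 dpp (log2 fold change -3.49, SE 0.6, adjusted p = 0.000165). The list's summed level was 502 to 2184 CPM at D30 and 28616 to 35138 CPM at 36.5 dpp, or 0.0535% to 0.214% of all counts against 1.86% to 2.34%. In D16 explants Prm1 stood at 1.14 ± 0.141 CPM (n = 2) and in the 22.5 dpp testis at 3.11 ± 2.45 CPM (n = 3), both far under the D30 level. Protamine RNA was thus above the level of either earlier stage in all 3 explant libraries at D30.

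Prm1, Prm2, Prm3 and Tnp2 form a cluster on chromosome 16 and are read from the same strand, and all of them were strictly lower at D30. Their promoters are shown because they are the neighbouring members of the list with the largest loss in level. Each sequence holds the 250 bases before the annotated start (RefSeq, GRCm38.p6, minus strand, 5′ to 3′), and capitals mark a match to a searched motif on either strand.
Prm1, chr16:10796824-10797073: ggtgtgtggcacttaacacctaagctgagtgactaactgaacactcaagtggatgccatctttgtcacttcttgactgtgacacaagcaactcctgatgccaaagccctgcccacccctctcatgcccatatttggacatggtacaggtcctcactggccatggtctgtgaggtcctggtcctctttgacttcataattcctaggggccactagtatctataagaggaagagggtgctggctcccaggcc
Prm2, chr16:10792106-10792355: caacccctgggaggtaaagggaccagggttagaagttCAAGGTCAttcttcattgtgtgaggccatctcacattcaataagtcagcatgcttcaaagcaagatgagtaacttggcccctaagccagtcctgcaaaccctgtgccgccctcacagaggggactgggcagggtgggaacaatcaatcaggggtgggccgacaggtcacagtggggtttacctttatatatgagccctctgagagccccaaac
Prm3, chr16:10790915-10791164: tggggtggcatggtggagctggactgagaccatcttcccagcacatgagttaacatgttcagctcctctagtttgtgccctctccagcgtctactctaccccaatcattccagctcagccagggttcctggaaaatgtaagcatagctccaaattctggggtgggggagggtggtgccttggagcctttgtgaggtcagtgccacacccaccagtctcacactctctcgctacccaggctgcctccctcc
Tnp2, chr16:10788656-10788905: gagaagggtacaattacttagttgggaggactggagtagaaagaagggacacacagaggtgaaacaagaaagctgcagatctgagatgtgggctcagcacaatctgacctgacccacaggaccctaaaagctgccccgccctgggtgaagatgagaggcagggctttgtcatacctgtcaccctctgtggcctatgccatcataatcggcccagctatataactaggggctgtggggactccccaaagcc
The motifs searched on both strands were the palindromic cAMP response element TGACGTCA, the AP-1 motif TGANTCA and the NR5A1 motif CAAGGTCA with its reverse complement TGACCTTG. Of these letters only an NR5A1 motif was found, in Prm2, with its first base at position -213 from the start. A match in such a window is a description and not a binding site. Among 27025 genes with a promoter sequence, 2.03% held the cAMP response element, 8.97% the AP-1 motif and 1.76% the NR5A1 motif. Among the 1458 strictly lower genes with a promoter the shares were 2.61%, 9.47% and 2.19%, and among the 1088 strictly higher genes 2.21%, 9.74% and 1.19%, beside 2.95%, 7.34% and 1.46% over the 15484 tested genes with a promoter. Against all tested genes, the AP-1 share was larger in both directions and that of the cAMP response element smaller in both. The NR5A1 share was larger among strictly lower and smaller among strictly higher genes. These differences in share were not tested.

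Genes of the sperm tail were lower without exception in the fibrous sheath and outer dense fibre list, where all 15 members were lower and 6 strictly so (median log2 fold change -3.79). Odf2, the main protein of the outer dense fibres, had 1505, 1015 and 547 CPM at D30 and 4487 and 8121 CPM at 36.5 dpp (log2 fold change -2.62, SE 0.42, adjusted p = 8.26e-05). The 36.5 dpp libraries differed among themselves for Odf2, yet both lay above every explant. Tcp11, which takes part in sperm motility, had 735, 645 and 232 CPM at D30 and 2922 and 3162 CPM at 36.5 dpp (log2 fold change -2.5, SE 0.45, adjusted p = 0.000226). Akap4, the scaffold of the fibrous sheath, had 387, 352 and 84.9 CPM at D30 and 4159 and 3420.4 CPM at 36.5 dpp and passed the broad call only (log2 fold change -3.79, SE 1.01, adjusted p = 0.00425). Its lowest and highest explant libraries differed more than 4-fold. Odf1 had 151, 156 and 35.1 CPM at D30 and 2586 and 2267 CPM at 36.5 dpp, again without overlap (log2 fold change -4.41, SE 1.02, adjusted p = 0.00161). The list's share of counts was 0.146% to 0.423% at D30 and 1.84% to 1.9% at 36.5 dpp.

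In the axoneme list, the dynein arms, radial spokes and tektins that move the tail, all 25 members were lower, but 8 strictly and with a smaller median of -1.72. Tekt5, a tektin of sperm flagella, had 32.8, 25.6 and 12.3 CPM at D30 and 220 and 227 CPM at 36.5 dpp (log2 fold change -3.24, SE 0.45, adjusted p = 2.45e-05). Rsph9, a radial spoke head protein, had 32.5, 38.6 and 21.1 CPM at D30 and 181 and 156 CPM at 36.5 dpp (log2 fold change -2.45, SE 0.36, adjusted p = 4.24e-05). Both were lowest in the third explant library and did not overlap between groups, whereas Dnah2 and Cfap65 overlapped. With the library total alone as scaling, 20 of the 25 remained called as lower. The CatSper channel, through which calcium enters the sperm tail, had 10 of 12 members lower (median -1.5). Catsper3, a pore subunit, had 9.42, 10.3 and 3.43 CPM at D30 and 175 and 152 CPM at 36.5 dpp (log2 fold change -4.41, SE 0.87, adjusted p = 0.000493). Efcab9, its calcium sensor, had 28.5, 28.7 and 11.9 CPM at D30 and 211 and 200.2 CPM at 36.5 dpp (log2 fold change -3.16, SE 0.62, adjusted p = 0.000438). These were the CatSper members with the smallest p and the only ones strictly lower, and with the library total alone 6 of the 12 were called.

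The acrosome, the vesicle of enzymes and receptors that meets the egg, was represented by 20 tested genes and all were lower (median -3.34), 3 of them strictly. Izumo1, which binds the egg receptor, had 17.3, 19.2 and 7.73 CPM at D30 and 162 and 151 CPM at 36.5 dpp (log2 fold change -3.4, SE 0.63, adjusted p = 0.000275). Dcst1, a membrane protein needed for fusion with the egg, had 10.9, 7.94 and 5.51 CPM at D30 and 87.7 and 159 CPM at 36.5 dpp (log2 fold change -3.92, SE 0.71, adjusted p = 0.000244). Acr, encoding the protease acrosin, had 115, 102 and 36.9 CPM at D30 and 347 and 377 CPM at 36.5 dpp and a smaller difference (log2 fold change -2.1, SE 0.48, adjusted p = 0.00143). None of these 3 genes overlapped between groups. The head and cytoskeleton list was lower in all 20 members, 9 strictly (median -3.77). Hook1, a linker of the manchette that shapes the head, had 206, 185 and 104 CPM at D30 and 647 and 775 CPM at 36.5 dpp (log2 fold change -2.11, SE 0.25, adjusted p = 7.65e-06). Spata18 had 77.4, 56.6 and 14.8 CPM at D30 and 762 and 895 CPM at 36.5 dpp (log2 fold change -4.06, SE 0.6, adjusted p = 4.41e-05). Hook1 differed by about as much as the smallest of the strict changes, and Spata18 by far more. 

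Regulators that switch on the spermatid programme were lower in 11 of 12 cases (median -2.16). Crem, the activator of cAMP-responsive genes in spermatids, had 96.1, 159 and 36.4 CPM at D30 and 633 and 333 CPM at 36.5 dpp (log2 fold change -2.31, SE 0.58, adjusted p = 0.00265). Sox30, a regulator of the round spermatid programme, had 63.2, 53.2 and 24.1 CPM at D30 and 241 and 338 CPM at 36.5 dpp (log2 fold change -2.63, SE 0.33, adjusted p = 1.04e-05). Tssk6, a spermatid kinase kept in the same list, had 27.2, 20 and 5.96 CPM at D30 and 557 and 386 CPM at 36.5 dpp (log2 fold change -4.73, SE 0.44, adjusted p = 1.06e-06). Explant replicate 3 was the lowest, at a level the frozen-tissue library shared (6.79 CPM). Rfx2, a factor for cilia and tail genes, had 246, 185 and 94.4 CPM at D30 and 386 and 804 CPM at 36.5 dpp (log2 fold change -1.76, SE 0.38, adjusted p = 0.000906). The explants overlapped with the in vivo libraries for none of them. Taf7l, a germ cell subunit of the general transcription machinery that lies on the X chromosome, was the exception with 97.8, 111 and 89.9 CPM at D30 and 63.7 and 45.6 CPM at 36.5 dpp (log2 fold change 0.87, SE 0.21, adjusted p = 0.00214). It was higher in all 3 explants.

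**Figure D2:**
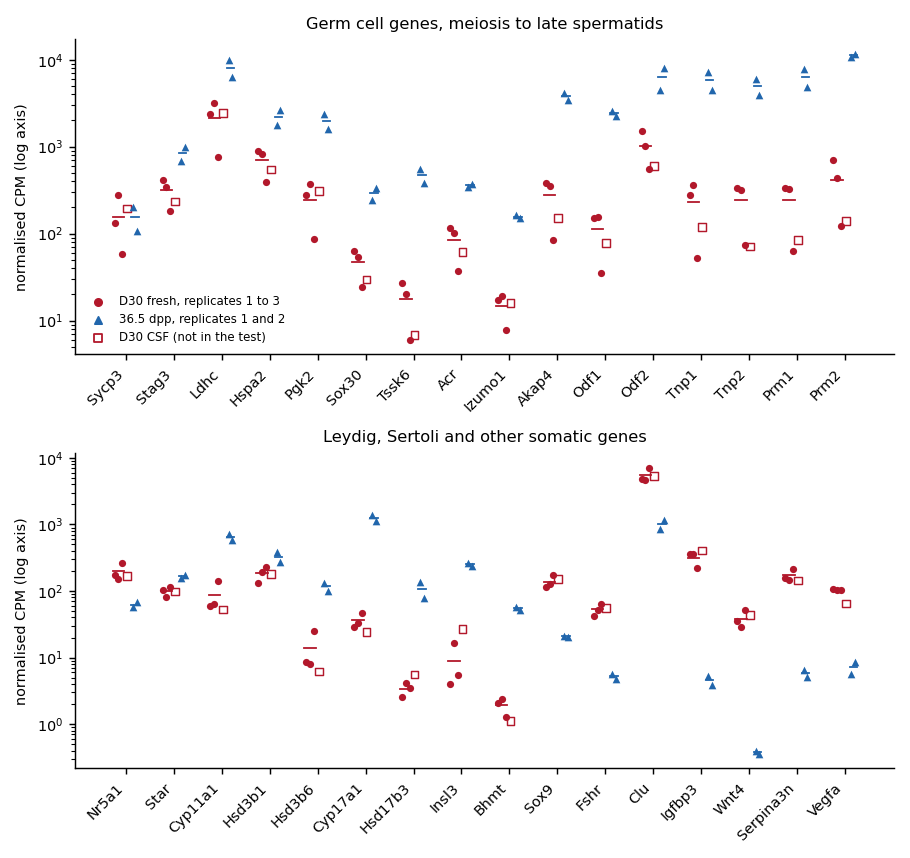
Level of named genes in each library on a log10 axis of normalised CPM, with 1 point for each D30, 36.5 dpp and D30 CSF library. Late germ cell genes such as Prm2 lie far lower at D30, with replicate 3 lowest, while Sertoli cell genes such as Clu lie above both 36.5 dpp libraries.

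Spermatocyte genes differed less. Of 16 pachytene and diplotene genes 9 were lower and none higher (median -1.41, with 1 strict). Cdc25c, a phosphatase of the meiotic divisions, had 14.4, 15.3 and 9.39 CPM at D30 and 43.9 and 45.8 CPM at 36.5 dpp (log2 fold change -1.78, SE 0.32, adjusted p = 0.000243). Hspa2, a chaperone needed to leave prophase, had 886, 815 and 397 CPM at D30 and 1753 and 2635 CPM at 36.5 dpp (log2 fold change -1.65, SE 0.32, adjusted p = 0.000444). Both were lowest in explant replicate 3 and did not overlap between groups. Piwil1, of the pachytene piRNA pathway, had 466, 361 and 134 CPM at D30 and 389 and 802 CPM at 36.5 dpp, with overlap and no call (log2 fold change -0.9, SE 0.45, adjusted p = 0.0897). Of 27 genes of the meiotic prophase, 7 were lower, 3 higher and 17 not called (median -0.236), which is no more than the background of all genes. Rec8, the meiotic cohesin, had 23.8, 18.6 and 16.1 CPM at D30 and 115 and 137 CPM at 36.5 dpp (log2 fold change -2.69, SE 0.29, adjusted p = 3.67e-06). Syce2, a central element protein of the synaptonemal complex, had 59.4, 80.5 and 33.5 CPM at D30 and 297 and 232 CPM at 36.5 dpp (log2 fold change -2.19, SE 0.38, adjusted p = 0.000169). Those 2 genes were the strictly called members. Prdm9, which places recombination hotspots, moved the other way with 15.8, 14.1 and 11 CPM at D30 and 4.24 and 5.74 CPM at 36.5 dpp (log2 fold change 1.45, SE 0.28, adjusted p = 0.000381), as did Tex11, a crossover gene of the X chromosome, with 46.6, 51.5 and 43.9 CPM at D30 and 25.1 and 20.5 CPM at 36.5 dpp (log2 fold change 1.06, SE 0.23, adjusted p = 0.000925). The prophase median changed sign to 0.36 with the library total alone and to 0.0676 without D30 replicate 3, so no direction is given for that list.

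Most of the listed spermatogonial genes were called higher in the explants. Of 14 genes of undifferentiated spermatogonia 11 were higher and 1 lower (median 1.69). Etv5, a factor for self-renewal, had 57.8, 55.5 and 77.4 CPM at D30 and 17.3 and 19.9 CPM at 36.5 dpp (log2 fold change 1.77, SE 0.3, adjusted p = 0.000136). Bcl6b, another such factor, had 18.3, 13.7 and 15.5 CPM at D30 and 5.71 and 4.11 CPM at 36.5 dpp (log2 fold change 1.69, SE 0.27, adjusted p = 8.73e-05). Ret, the receptor for GDNF, had 14.2, 10.1 and 22.1 CPM at D30 and 2.45 and 4.15 CPM at 36.5 dpp (log2 fold change 2.22, SE 0.45, adjusted p = 0.000611). All D30 libraries exceeded both 36.5 dpp libraries for these 3 genes. Gfra1, the co-receptor of Ret, had 12, 8.87 and 19.1 CPM at D30 and 15.8 and 15.4 CPM at 36.5 dpp, with overlap and no call (log2 fold change -0.23, SE 0.36, adjusted p = 0.583). Egr4 was the single member called lower (8.06, 10.1 and 9.18 CPM at D30 and 14.6 and 14 CPM at 36.5 dpp; log2 fold change -0.65, SE 0.26, adjusted p = 0.039), a call that was lost with the library total alone and under most other alternatives. In the list for differentiating spermatogonia and entry into meiosis 7 of 12 were higher and 2 lower (median 0.856). With RLE factors 5 were higher and 2 lower. The summed level of this list ran the other way, at 667 to 753 CPM at D30 and 1242 to 1378 CPM at 36.5 dpp. Stra8, the retinoic acid target that starts meiosis, had 70.6, 67.9 and 77.4 CPM at D30 and 21.7 and 15.2 CPM at 36.5 dpp (log2 fold change 1.96, SE 0.27, adjusted p = 2.22e-05). Ccnd2, a D-type cyclin, had 99.4, 86.6 and 127 CPM at D30 and 9.23 and 14.8 CPM at 36.5 dpp (log2 fold change 3.11, SE 0.37, adjusted p = 7.3e-06). Both were several-fold higher in culture, without overlap. Dmrtb1, a regulator of the switch from mitosis to meiosis, had 315, 317 and 145 CPM at D30 and 1218 and 1073 CPM at 36.5 dpp (log2 fold change -2.15, SE 0.39, adjusted p = 0.000278). Kit was not called (log2 fold change 0.54, SE 0.29, adjusted p = 0.118), except as higher with the library total alone or without 36.5 dpp replicate 2. Nanos3 was called lower with 1 explant library and 1 in vivo library almost level (0.789, 1.99 and 1.3 CPM at D30 and 5.44 and 2.02 CPM at 36.5 dpp), and the call was lost with the library total alone and without 36.5 dpp replicate 1.

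Sertoli cell genes were almost uniformly higher, with 24 of 26 higher, 15 strictly, none lower and a median of 2.27, beside 31% higher and 7.22% strictly higher among all genes. Fshr, the receptor for follicle-stimulating hormone, had 42.4, 52.5 and 63.4 CPM at D30 and 5.67 and 4.79 CPM at 36.5 dpp (log2 fold change 3.34, SE 0.24, adjusted p = 1.44e-07). Vim, encoding vimentin, had 670.5, 735 and 795 CPM at D30 and 121 and 123 CPM at 36.5 dpp (log2 fold change 2.59, SE 0.22, adjusted p = 5.93e-07). Clu, encoding the secreted chaperone clusterin, showed the largest excess of mean level at D30 of all genes under the strict call. It had 5545 ± 1398 CPM (SD, n = 3) at D30 and 1022 ± 231 CPM (SD, n = 2) at 36.5 dpp (log2 fold change 2.44, SE 0.27, adjusted p = 4.11e-06). Its mean was 5966 CPM at D4 and 4725 CPM at D16, against 3279 CPM at 10.5 dpp and 1893 CPM at 22.5 dpp. Sox9, which sets Sertoli cell identity, had 114, 129 and 173 CPM at D30 and 20.9 and 20.6 CPM at 36.5 dpp (log2 fold change 2.74, SE 0.32, adjusted p = 7.09e-06). Replicate 3 was the highest explant for all 4 genes, and no in vivo library reached any explant. Amh, the anti-Müllerian hormone of the immature Sertoli cell, had 19.7, 17.6 and 27.2 CPM at D30 and 5.13 and 7.36 CPM at 36.5 dpp (log2 fold change 1.78, SE 0.24, adjusted p = 2.04e-05). Gdnf and Kitl, the ligands of Ret and Kit, were higher too (log2 fold changes 2.38 and 2.41). The list took 1.15% to 1.76% of counts at D30 and 0.195% to 0.202% at 36.5 dpp. The uncalled members were Rhox5 and Cst9.

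The blood-testis barrier list had 10 of 14 members higher and 1 lower (median 1.6). Cldn11, the barrier claudin of Sertoli cells, had 632, 541 and 956 CPM at D30 and 88.6 and 107 CPM at 36.5 dpp (log2 fold change 2.86, SE 0.36, adjusted p = 1.04e-05). Ocln, encoding occludin, had 70.4, 99.3 and 102 CPM at D30 and 16.5 and 8.27 CPM at 36.5 dpp (log2 fold change 2.87, SE 0.35, adjusted p = 9.79e-06). Cldn3, an androgen-responsive claudin of newly formed junctions, was the single member that fell, with 16.9, 15.9 and 7.21 CPM at D30 and 46.3 and 85.2 CPM at 36.5 dpp (log2 fold change -2.3, SE 0.39, adjusted p = 0.000143). Its explant libraries all lay below the in vivo ones, opposite to Cldn11 and Ocln. Peritubular myoid and smooth muscle genes were higher in 12 of 14 cases (median 1.6). Cnn3, encoding the acidic calponin, had 160.3, 176 and 225 CPM at D30 and 11.2 and 10.6 CPM at 36.5 dpp (log2 fold change 4.11, SE 0.26, adjusted p = 8.3e-08). Acta2, the smooth muscle actin of myoid cells, had 171, 165 and 286 CPM at D30 and 74.5 and 65.6 CPM at 36.5 dpp (log2 fold change 1.57, SE 0.29, adjusted p = 0.000266). Cald1, encoding caldesmon, had 73.9, 69.5 and 104 CPM at D30 and 18.2 and 24.1 CPM at 36.5 dpp (log2 fold change 1.96, SE 0.25, adjusted p = 1.35e-05). Actg2, the enteric smooth muscle actin, ran against the list with 41.6, 30.9 and 22.1 CPM at D30 and 422 and 500.1 CPM at 36.5 dpp (log2 fold change -3.87, SE 0.39, adjusted p = 1.86e-06).

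Matrix genes were mostly higher at D30, with 21 of 23 members higher, 13 strictly and 1 lower (median 2.16). Col3a1, a fibrillar collagen, had 603, 460.2 and 753 CPM at D30 and 57 and 73.4 CPM at 36.5 dpp (log2 fold change 3.21, SE 0.34, adjusted p = 2.56e-06). Col1a1 had 236, 165 and 302 CPM at D30 and 19.5 and 26.4 CPM at 36.5 dpp (log2 fold change 3.35, SE 0.43, adjusted p = 1.27e-05). Bgn, encoding the proteoglycan biglycan, had 209.5, 152 and 259.5 CPM at D30 and 21.6 and 24.4 CPM at 36.5 dpp (log2 fold change 3.17, SE 0.3, adjusted p = 1.23e-06). Explant replicate 2 was the lowest explant for each, still several-fold above both in vivo libraries. Sparc, a collagen-binding matricellular protein, had 4762 ± 772 CPM at D30 and 1127 ± 227 CPM at 36.5 dpp (SD, n = 3 and 2), the largest excess of mean level after Clu. Its mean was 5355 CPM at D4 and 4281 CPM at D16, against 2848 CPM at 10.5 dpp and 1525 CPM at 22.5 dpp. Postn, encoding periostin, was called lower with 19.3, 18.4 and 11 CPM at D30 and 25.9 and 31.9 CPM at 36.5 dpp (log2 fold change -0.83, SE 0.32, adjusted p = 0.0318), a call that was lost with the library total alone and without D30 replicate 3 or 36.5 dpp replicate 2. Of 21 genes for CCN proteins, TGF beta and proteolysis 18 were higher and none was called lower (median 2.55). Mmp11, a stromal metalloproteinase, had 67.2, 58.3 and 97.9 CPM at D30 and 4.73 and 5.26 CPM at 36.5 dpp (log2 fold change 3.9, SE 0.26, adjusted p = 1.26e-07). Plat, the tissue plasminogen activator, had 125, 126 and 135 CPM at D30 and 18.6 and 18.1 CPM at 36.5 dpp (log2 fold change 2.81, SE 0.21, adjusted p = 1.66e-07). Both were several-fold above the in vivo libraries in every explant. Mmp12, the macrophage elastase, had 13.1, 15 and 25.2 CPM at D30 and 0.0892 and 0 CPM at 36.5 dpp, and since the 36.5 dpp group was at the detection floor of 3 counts per library it is given only as at least 141-fold higher.

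**Figure D3:**
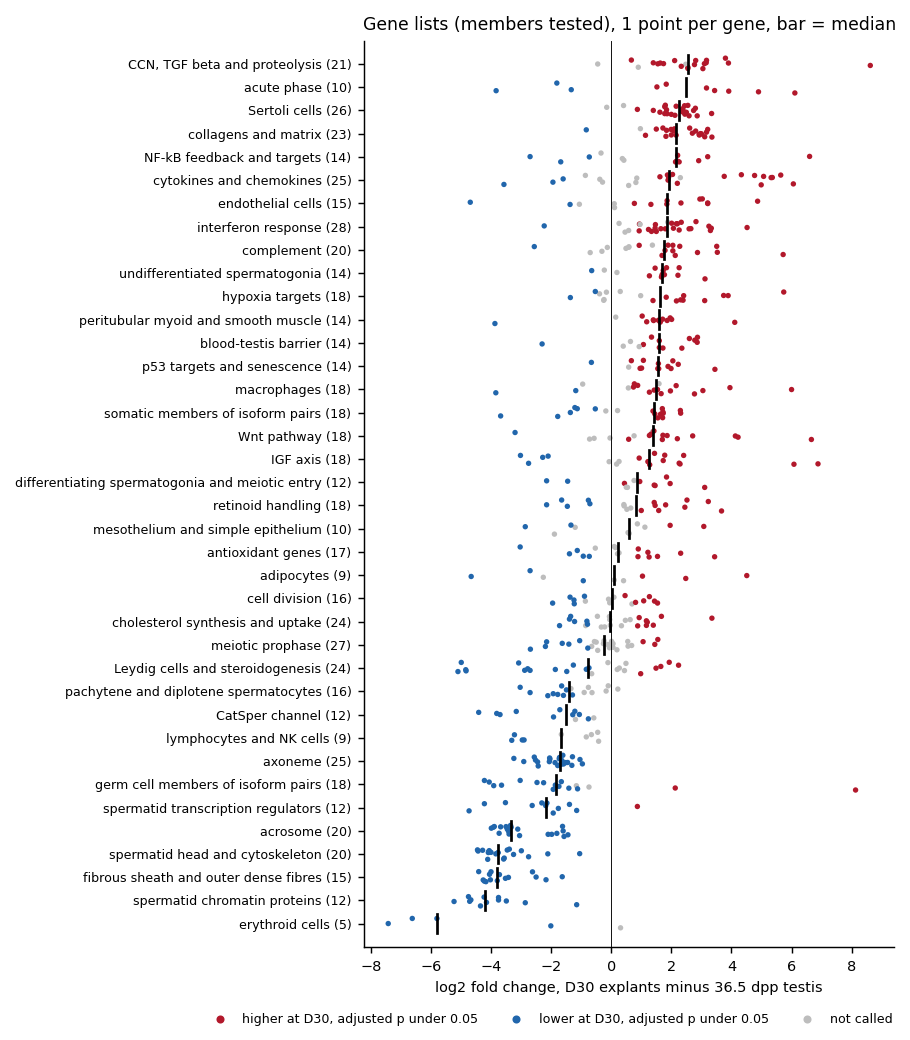
Log2 fold changes of D30 over 36.5 dpp for the tested members of each gene list (points), with the list median as a bar. Lists of spermatid structure lie to the left, with medians down to -4.19 for the chromatin proteins, and Sertoli cell, matrix and protease lists to the right, with medians of 2.16 to 2.55. The lowest median, -5.8, is that of the erythroid list with 5 tested genes.

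Steroidogenic genes split. In the Leydig cell list 13 of 24 members were lower, 8 strictly, and 5 higher (median -0.785). Over all genes 33.3% were lower, 9.33% strictly, and 31% higher. With the library total alone 10 were lower and 8 higher, with a median of -0.161. Cyp17a1, the hydroxylase and lyase of androgen synthesis, had 29, 32.8 and 47.4 CPM at D30 and 1376 and 1117 CPM at 36.5 dpp (log2 fold change -5.1, SE 0.31, adjusted p = 8.3e-08). Hsd17b3, which makes testosterone, had 2.59, 4.15 and 3.43 CPM at D30 and 137 and 78.2 CPM at 36.5 dpp (log2 fold change -4.99, SE 0.31, adjusted p = 8.3e-08). Cyp11a1, the side chain cleavage enzyme, had 58.6, 63.6 and 141 CPM at D30 and 715 and 579 CPM at 36.5 dpp (log2 fold change -2.88, SE 0.37, adjusted p = 1.37e-05). Insl3, the peptide hormone of mature Leydig cells, had 4.07, 16.8 and 5.44 CPM at D30 and 261 and 241 CPM at 36.5 dpp (log2 fold change -4.84, SE 0.68, adjusted p = 2.9e-05). These 4 genes were strictly lower without overlap, and the lowest of them in culture, Hsd17b3, still had 105 to 161 counts per explant library. Star, which carries cholesterol into mitochondria, had 102, 82.6 and 115 CPM at D30 and 157 and 177 CPM at 36.5 dpp and was called lower at the broad threshold only (log2 fold change -0.74, SE 0.29, adjusted p = 0.0364). Hsd3b1 was likewise called only broadly (129.7, 194 and 227 CPM at D30 and 383 and 269 CPM at 36.5 dpp; log2 fold change -0.83, SE 0.29, adjusted p = 0.0207). The calls of Star and Hsd3b1 were lost with the library total alone, without 36.5 dpp replicate 1 and without D30 replicate 1. Hsd3b6, the isoform of adult Leydig cells, was strictly lower (8.56, 8.1 and 25 CPM at D30 and 134 and 101 CPM at 36.5 dpp; log2 fold change -3.08, SE 0.48, adjusted p = 7.46e-05). Cyp19a1, the aromatase, was also lower (2.12, 1.62 and 0.662 CPM at D30 and 9.32 and 9.77 CPM at 36.5 dpp; log2 fold change -2.7, SE 0.43, adjusted p = 8.54e-05). Bhmt, a methyltransferase of homocysteine, had 2.05, 2.42 and 1.3 CPM at D30 and 57.9 and 51.9 CPM at 36.5 dpp (log2 fold change -4.83, SE 0.45, adjusted p = 1.08e-06). The members that rose included Nr5a1, the steroidogenic factor that Sertoli cells also express, with 175, 154 and 262 CPM at D30 and 57.6 and 67.8 CPM at 36.5 dpp (log2 fold change 1.65, SE 0.26, adjusted p = 7.85e-05), and Hsd17b11, with 81.5, 89.3 and 113 CPM at D30 and 27.1 and 22.6 CPM at 36.5 dpp (log2 fold change 1.93, SE 0.26, adjusted p = 1.97e-05).

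Hsd17b3 was among the genes with the smallest p, and its promoter is shown for that reason, with an AP-1 motif in capitals whose first base lies at -121 (250 bases before the start, RefSeq, GRCm38.p6, minus strand).
Hsd17b3, chr13:64089202-64089451: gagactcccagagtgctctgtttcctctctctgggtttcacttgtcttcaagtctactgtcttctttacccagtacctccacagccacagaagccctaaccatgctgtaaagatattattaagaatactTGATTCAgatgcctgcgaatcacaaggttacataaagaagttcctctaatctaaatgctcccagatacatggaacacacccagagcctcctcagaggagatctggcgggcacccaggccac
The annotated gene spans chr13:64058274-64089262 in the same build, so part of this window lies within the gene. The position -121 is counted from the start that borders the window and not from the outer end of the gene. The AP-1 letters were found in 9.47% of strictly lower genes with a promoter, as given above.

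In the insulin-like growth factor (IGF) axis 11 of 18 genes were higher and 4 lower (median 1.25). Igfbp3, the main carrier of IGF1 in serum, had 354, 359 and 218 CPM at D30 and 5.31 and 3.88 CPM at 36.5 dpp (log2 fold change 6.08, SE 0.43, adjusted p = 1.44e-07). Igfbp5, a binding protein of the matrix, had 63.5, 63.5 and 57.9 CPM at D30 and 0.446 and 0.593 CPM at 36.5 dpp (log2 fold change 6.88, SE 0.61, adjusted p = 7.11e-07). Igfbp4 had 101, 105 and 116 CPM at D30 and 22.1 and 21.9 CPM at 36.5 dpp (log2 fold change 2.29, SE 0.19, adjusted p = 3.52e-07). None of the 3 genes overlapped between groups, and Igfbp5 was the lowest of them in vivo. Igf1, the ligand, was higher as well (71.7, 75.7 and 102 CPM at D30 and 18.5 and 16.3 CPM at 36.5 dpp; log2 fold change 2.26, SE 0.31, adjusted p = 2.43e-05). Igfbp2 ran the other way with 13.6, 17 and 13.8 CPM at D30 and 99.5 and 44.2 CPM at 36.5 dpp (log2 fold change -2.28, SE 0.36, adjusted p = 8.59e-05). Igfals, the acid-labile subunit of the serum complex, had 0.592, 0.567 and 0.189 CPM at D30 and 3.43 and 3.88 CPM at 36.5 dpp (log2 fold change -3.02, SE 0.46, adjusted p = 5.56e-05). Pappa2, a protease of binding proteins, was lower as well (log2 fold change -2.75, SE 0.52, adjusted p = 0.000353).

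Cholesterol genes had 8 of 24 higher, 6 lower and 10 not called, near the background of all genes, with a median of -0.04 whose sign depended on the settings. Vldlr, an uptake receptor for lipoproteins, had 29.6, 27.7 and 31 CPM at D30 and 3.08 and 2.69 CPM at 36.5 dpp (log2 fold change 3.35, SE 0.19, adjusted p = 8.3e-08). Its adjusted p was the smallest of the fit, a value that several other genes shared. Dhcr7, the last enzyme of the pathway, had 120.1, 98.1 and 127 CPM at D30 and 41.2 and 58.7 CPM at 36.5 dpp (log2 fold change 1.2, SE 0.2, adjusted p = 0.000107). Sqle, the squalene epoxidase, had 96.2, 92.8 and 70.9 CPM at D30 and 199 and 204 CPM at 36.5 dpp (log2 fold change -1.22, SE 0.17, adjusted p = 2.54e-05). Cyp51, the sterol demethylase, had 67.1, 81.1 and 69.7 CPM at D30 and 209 and 172 CPM at 36.5 dpp (log2 fold change -1.39, SE 0.2, adjusted p = 4.26e-05). Enzymes of the same pathway thus differed in opposite directions.

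Retinoid genes, of interest because retinol was added, had 9 of 18 members higher and 5 lower (median 0.825). Over all genes 31% were higher and 33.3% lower. Aldh1a3, an enzyme that makes retinoic acid, had 32, 32.7 and 32.6 CPM at D30 and 6.56 and 5.34 CPM at 36.5 dpp (log2 fold change 2.45, SE 0.22, adjusted p = 6.87e-07). Cyp26b1, which degrades retinoic acid, had 89.6, 80.7 and 156 CPM at D30 and 32.3 and 40.6 CPM at 36.5 dpp (log2 fold change 1.58, SE 0.33, adjusted p = 0.000839). Genes of storage, synthesis and degradation were thus not uniform, since Lrat, which stores retinol as esters, had 11.1, 11.8 and 8.21 CPM at D30 and 32.3 and 24.7 CPM at 36.5 dpp (log2 fold change -1.46, SE 0.31, adjusted p = 0.000927). The receptors also differed, with Rara higher (84.6, 77.7 and 113 CPM at D30 and 22.9 and 29.4 CPM at 36.5 dpp; log2 fold change 1.81, SE 0.22, adjusted p = 9.1e-06) and Rarb lower (0.222, 0.129 and 0.331 CPM at D30 and 1.03 and 1.03 CPM at 36.5 dpp; log2 fold change -2.15, SE 0.47, adjusted p = 0.00106). In the Wnt list 12 of 18 genes were higher and 1 lower (median 1.4). Wnt4, a ligand of the female gonad pathway, had 35.6, 28.5 and 51.4 CPM at D30 and 0.401 and 0.356 CPM at 36.5 dpp (log2 fold change 6.66, SE 0.46, adjusted p = 1.34e-07). Fst, the activin antagonist follistatin, had 17.8, 22.6 and 29.2 CPM at D30 and 1.47 and 1.03 CPM at 36.5 dpp (log2 fold change 4.22, SE 0.31, adjusted p = 1.59e-07). Lgr5, the R-spondin receptor, was the member that fell (1.36, 0.851 and 0.686 CPM at D30 and 5.71 and 12 CPM at 36.5 dpp; log2 fold change -3.2, SE 0.42, adjusted p = 1.72e-05). Wnt4 rose by the largest fold change among the 10 genes that the study names for this comparison, which it chose on these samples, so that they are no independent evidence of direction.

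Complement genes were higher in 12 of 20 cases and lower in 1 (median 1.74), beside 31% and 33.3% over all genes. Cfi, the protease that inactivates C3b, had 29.5, 31.4 and 39.5 CPM at D30 and 0.669 and 0.593 CPM at 36.5 dpp (log2 fold change 5.72, SE 0.34, adjusted p = 8.3e-08). Serping1, the inhibitor of C1, had 249, 242 and 337 CPM at D30 and 24.3 and 23.6 CPM at 36.5 dpp (log2 fold change 3.53, SE 0.23, adjusted p = 8.3e-08). C3, the central component, had 242, 134 and 187 CPM at D30 and 11.7 and 21.2 CPM at 36.5 dpp (log2 fold change 3.51, SE 0.32, adjusted p = 1.04e-06). These 3 genes did not overlap between groups. C1qa, a chain of C1q, had 28.6, 38.1 and 41.3 CPM at D30 and 31.9 and 16.1 CPM at 36.5 dpp and no call (log2 fold change 0.59, SE 0.37, adjusted p = 0.173), although it was called as higher with the library total alone. Cd55, a regulator which breaks down convertases on the cell surface, fell (14.7, 19.9 and 5.89 CPM at D30 and 92.6 and 66.9 CPM at 36.5 dpp; log2 fold change -2.56, SE 0.43, adjusted p = 0.000136). In the acute phase list 7 of 10 were higher and 3 lower (median 2.5). Serpina3n, a serpin, had 159.5, 146 and 215 CPM at D30 and 6.47 and 5.14 CPM at 36.5 dpp (log2 fold change 4.9, SE 0.46, adjusted p = 1.08e-06). Saa3, a serum amyloid A, had 21.8, 44.5 and 25.8 CPM at D30 and 0.446 and 0.435 CPM at 36.5 dpp (log2 fold change 6.11, SE 0.6, adjusted p = 1.44e-06). Lcn2, encoding lipocalin 2, ran against them with 120.4, 147 and 94.7 CPM at D30 and 461 and 387 CPM at 36.5 dpp (log2 fold change -1.81, SE 0.28, adjusted p = 7.04e-05). Fgb, a fibrinogen chain, was lower at a level near the floor (0.247, 0.0516 and 0.142 CPM at D30 and 2.19 and 2.1 CPM at 36.5 dpp).

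Cytokines and chemokines were higher in 15 of 25 tested genes and lower in 3 (median 1.91). Lif, a cytokine of the interleukin 6 family, had 6.86, 4.15 and 7.78 CPM at D30 and 0.401 and 0.514 CPM at 36.5 dpp (log2 fold change 3.76, SE 0.39, adjusted p = 2.2e-06). Cx3cl1, the membrane-bound chemokine, had 15.2, 12.6 and 17.6 CPM at D30 and 2.68 and 3.88 CPM at 36.5 dpp (log2 fold change 2.2, SE 0.29, adjusted p = 1.68e-05). Ccl2, which attracts monocytes, had 2.98, 6.24 and 2.96 CPM at D30 and 0.0892 and 0.158 CPM at 36.5 dpp (log2 fold change 4.99, SE 0.83, adjusted p = 0.000125). Il11, of the same family as Lif, had 1.6, 1.78 and 0.922 CPM at D30 and 20 and 14.2 CPM at 36.5 dpp and fell (log2 fold change -3.57, SE 0.47, adjusted p = 1.63e-05). Cxcl1, which attracts neutrophils, had 3.75, 5.72 and 3.45 CPM at D30 and 0.0446 and 0.119 CPM at 36.5 dpp, at least 34.2-fold higher since 36.5 dpp was at the floor. NF-kB targets had 8 of 14 higher and 3 lower (median 2.15), all 8 strictly. Nfkb2 had 42.2, 34.2 and 40.8 CPM at D30 and 4.24 and 6.17 CPM at 36.5 dpp (log2 fold change 2.91, SE 0.26, adjusted p = 7.12e-07). Relb, its partner, had 31.1, 28.3 and 30.9 CPM at D30 and 5.17 and 7.36 CPM at 36.5 dpp (log2 fold change 2.26, SE 0.23, adjusted p = 2.19e-06). Both subunits belong to the non-canonical branch, whereas Nfkb1 was not called (adjusted p = 0.194) except as higher with the library total alone. Traf1 fell (3.87, 2.24 and 1.61 CPM at D30 and 12.8 and 20.6 CPM at 36.5 dpp; log2 fold change -2.7, SE 0.41, adjusted p = 6.21e-05), as did Tnfaip2 (58.6, 41.4 and 25.7 CPM at D30 and 114 and 155 CPM at 36.5 dpp; log2 fold change -1.68, SE 0.31, adjusted p = 0.000304).

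Interferon-responsive genes were higher in 22 of 28 cases and lower in 1 (median 1.84), with 3 strictly higher. Irf1 had 23.9, 20.3 and 30.9 CPM at D30 and 2.77 and 4.31 CPM at 36.5 dpp (log2 fold change 2.82, SE 0.28, adjusted p = 1.86e-06). Tap1, the peptide transporter for antigen presentation, had 12.8, 10.7 and 11.3 CPM at D30 and 1.65 and 2.06 CPM at 36.5 dpp (log2 fold change 2.65, SE 0.41, adjusted p = 6.84e-05). Mx1, an antiviral GTPase, was lower (1.18, 1.16 and 1.09 CPM at D30 and 4.73 and 6.05 CPM at 36.5 dpp; log2 fold change -2.23, SE 0.36, adjusted p = 8.48e-05). Rsad2, encoding viperin, had 5.1, 4.33 and 3.81 CPM at D30 and 0.223 and 0.158 CPM at 36.5 dpp (log2 fold change 4.52, SE 1.02, adjusted p = 0.00131). In the D30 CSF library Rsad2 stood at 37.4 CPM and Ifit1 at 30.8 CPM, where the fresh explants had 4.27, 5.7 and 3.38 CPM at D30 and 0.714 and 0.198 CPM at 36.5 dpp for Ifit1. With RLE factors 17 of the 28 were called as higher.

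Hypoxia targets had 10 of 18 higher and 2 lower (median 1.61), beside 31% and 33.3% over all genes. Vegfa, the angiogenic factor, had 106, 104 and 105 CPM at D30 and 5.62 and 8.59 CPM at 36.5 dpp (log2 fold change 3.89, SE 0.31, adjusted p = 2.93e-07). P4ha1, a collagen prolyl hydroxylase subunit, had 145, 151 and 169 CPM at D30 and 32.7 and 26.2 CPM at 36.5 dpp (log2 fold change 2.39, SE 0.22, adjusted p = 8.35e-07). Adm, encoding adrenomedullin, had 22.5, 22.4 and 13.2 CPM at D30 and 0.491 and 0.237 CPM at 36.5 dpp (log2 fold change 5.74, SE 0.56, adjusted p = 1.56e-06). These were many-fold higher and uniform across explants, except that Adm was lower in replicate 3. The glycolytic members Ldha (657, 748 and 293 CPM at D30 and 1566 and 1332 CPM at 36.5 dpp; log2 fold change -1.36, SE 0.41, adjusted p = 0.00969) and Aldoa (372, 307 and 397 CPM at D30 and 441 and 591 CPM at 36.5 dpp; log2 fold change -0.53, SE 0.18, adjusted p = 0.0181) were lower, although with the library total alone Aldoa changed direction (0.10) and the Ldha call was lost, and Ldha has near-identical copies that leave its counts uncertain. Of 17 antioxidant genes 7 were higher and 5 lower (31% and 33.3% over all genes), with a median of 0.213 that turned negative under RLE factors. Gpx3, a secreted glutathione peroxidase, had 122, 143 and 122 CPM at D30 and 16.5 and 7.44 CPM at 36.5 dpp (log2 fold change 3.44, SE 0.37, adjusted p = 3.18e-06). Gsr, glutathione reductase, had 103, 92 and 146 CPM at D30 and 21.2 and 24.5 CPM at 36.5 dpp (log2 fold change 2.31, SE 0.26, adjusted p = 4.99e-06). Gpx4, which forms the capsule of sperm mitochondria, had 77.6, 146 and 41.2 CPM at D30 and 1089 and 357 CPM at 36.5 dpp (log2 fold change -3.03, SE 0.71, adjusted p = 0.00176). Srxn1, a sulfiredoxin, was lower at uniform values (26.2, 23.9 and 27.8 CPM at D30 and 67.3 and 68.6 CPM at 36.5 dpp; log2 fold change -1.39, SE 0.2, adjusted p = 3.3e-05).

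Targets of p53 and senescence genes were higher in 12 of 14 cases and lower in 1 (median 1.56). Eda2r, a death receptor, had 4.66, 6.42 and 6.15 CPM at D30 and 0.446 and 0.593 CPM at 36.5 dpp (log2 fold change 3.45, SE 0.37, adjusted p = 2.85e-06). Sesn2, a sestrin, had 193, 174 and 231 CPM at D30 and 39.4 and 45.5 CPM at 36.5 dpp (log2 fold change 2.23, SE 0.26, adjusted p = 7.11e-06). Cdkn1a, encoding p21, had 37.9, 35.1 and 37.6 CPM at D30 and 21.3 and 13.9 CPM at 36.5 dpp and a smaller rise (log2 fold change 1.07, SE 0.24, adjusted p = 0.00145). Mdm2, which degrades p53, was the single member called lower (184, 196 and 122 CPM at D30 and 234 and 296 CPM at 36.5 dpp; log2 fold change -0.66, SE 0.19, adjusted p = 0.00701), a call that was lost with the library total alone. Genes of cell division were split near the background, with 6 of 16 higher and 5 lower (median 0.02, with a sign that depended on the scaling). Mcm4 (42.4, 42.5 and 52.9 CPM at D30 and 14.2 and 17.5 CPM at 36.5 dpp; log2 fold change 1.54, SE 0.21, adjusted p = 2.28e-05) and Mcm6 (75.8, 68.8 and 82.6 CPM at D30 and 26.8 and 36.1 CPM at 36.5 dpp; log2 fold change 1.27, SE 0.2, adjusted p = 9.04e-05), which unwind DNA for replication, were higher. Mcm7 of the same complex was lower (116, 114 and 78.5 CPM at D30 and 273 and 257 CPM at 36.5 dpp; log2 fold change -1.37, SE 0.25, adjusted p = 0.000263). Ccnb2, a B-type cyclin, was lower too (100, 133 and 47.1 CPM at D30 and 444 and 279 CPM at 36.5 dpp; log2 fold change -1.95, SE 0.45, adjusted p = 0.00144).

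Germ cells replace several housekeeping proteins by isoforms of their own, and 18 pairs of paralogs were set side by side, with names that give the list and not a measured cell type. Of the germ cell members 14 were lower and 2 higher (median -1.85), while of the somatic members 10 were higher and 6 lower (median 1.42). For pyruvate dehydrogenase, the X-linked Pdha1 had 33, 30.2 and 45.1 CPM at D30 and 10.6 and 11.6 CPM at 36.5 dpp (log2 fold change 1.7, SE 0.22, adjusted p = 1.54e-05) and the autosomal Pdha2 had 133, 158 and 47.9 CPM at D30 and 300.1 and 303 CPM at 36.5 dpp (log2 fold change -1.41, SE 0.37, adjusted p = 0.00353). In glycolysis the sperm enzyme Gapdhs had 164, 129.7 and 44.7 CPM at D30 and 1973 and 2239 CPM at 36.5 dpp (log2 fold change -4.22, SE 0.81, adjusted p = 0.000382). Hspa1l, a heat shock protein of spermatids, had 25.6, 16.7 and 5.96 CPM at D30 and 199 and 205 CPM at 36.5 dpp (log2 fold change -3.65, SE 0.54, adjusted p = 4.41e-05). The members of the dehydrogenase pair thus differed in opposite directions. Listed with the germ cell members but low or absent in the 36.5 dpp testis were Cox4i2, known as the lung isoform of a cytochrome oxidase subunit (2.52, 3.07 and 2.13 CPM at D30 and 0.491 and 0.673 CPM at 36.5 dpp; log2 fold change 2.13, SE 0.45, adjusted p = 0.00087) and Tubb4a, a tubulin known from neural tissue, which had no count at 36.5 dpp and was at least 6.42-fold higher. Spag6, named a somatic member but present in spermatids, fell (32.7, 42.4 and 16.3 CPM at D30 and 507 and 278 CPM at 36.5 dpp; log2 fold change -3.68, SE 0.78, adjusted p = 0.000815), and its reads may be shared with Spag6l. Values for Pgk1 and Gapdh, which have many processed copies, are uncertain and not given.

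Markers of other cells differed as well, and their part in the results above was not tested. Macrophage genes were higher in 13 of 18 cases and lower in 2 (median 1.48), beside 31% and 33.3% over all genes. Their summed level was 627 to 1073 CPM at D30 and 886 to 887 CPM at 36.5 dpp. Adgre1, the defining F4/80 antigen, had 18.4, 18.5 and 21.5 CPM at D30 and 6.78 and 7.68 CPM at 36.5 dpp (log2 fold change 1.43, SE 0.25, adjusted p = 0.000174). Gpnmb had 19.1, 12.5 and 41.3 CPM at D30 and 0.357 and 0.396 CPM at 36.5 dpp (log2 fold change 6.0, SE 0.65, adjusted p = 3.51e-06), and Cd14, a co-receptor for lipopolysaccharide, had 20.8, 34.8 and 26.3 CPM at D30 and 4.55 and 2.06 CPM at 36.5 dpp (log2 fold change 3.05, SE 0.39, adjusted p = 1.23e-05). Aif1 was lower and dominated the in vivo sum (62.5, 50.1 and 19.8 CPM at D30 and 599 and 666 CPM at 36.5 dpp; log2 fold change -3.84, SE 0.57, adjusted p = 4.58e-05). F13a1 was called lower as well (5.38, 8.87 and 20.4 CPM at D30 and 24.1 and 28.3 CPM at 36.5 dpp; log2 fold change -1.18, SE 0.41, adjusted p = 0.0197), a call that was lost with the library total alone. Endothelial genes had 10 of 15 higher and 2 lower (median 1.85), against the same shares over all genes. Their summed levels were 236 to 339 CPM at D30 and 83.5 to 118 CPM at 36.5 dpp. Pecam1, the defining adhesion molecule, had 50.5, 44.4 and 32.3 CPM at D30 and 4.37 and 4.79 CPM at 36.5 dpp (log2 fold change 3.21, SE 0.28, adjusted p = 6.76e-07). Cdh5, the endothelial cadherin, had 86.1, 68.7 and 58.1 CPM at D30 and 7.23 and 10.1 CPM at 36.5 dpp (log2 fold change 3.03, SE 0.31, adjusted p = 2.13e-06). Tek, the angiopoietin receptor, was lower (2.74, 2.4 and 2.03 CPM at D30 and 4.77 and 7.56 CPM at 36.5 dpp; log2 fold change -1.37, SE 0.31, adjusted p = 0.00151), without a call when the library total alone was used, and Aplnr, at the floor at D30, was at least 9.53-fold lower.

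Erythroid genes were lower in 4 of 5 tested cases, and Hbb-bt and Hba-a1 were at the floor in every explant, where at most 2 counts were found, although the globin copies share reads. Their bounds were at least 25.9-fold lower for Hbb-bt and at least 47.6-fold lower for Hba-a1. The summed level of the erythroid list overlapped between groups (35.2 to 50.3 CPM at D30 and 38.1 to 46.8 CPM at 36.5 dpp), and Alas2, an enzyme of heme synthesis that was not called, made up most of it in both. Of 14 lymphocyte and NK cell genes 9 were tested. Among them 4 were lower and none higher, beside 33.3% lower and 31% higher over all genes. The summed level of the list was 2.98 to 6.31 CPM at D30 and 20.6 to 35.5 CPM at 36.5 dpp. Cd3d had 2.86, 3.04 and 0.568 CPM at D30 and 28.4 and 14.3 CPM at 36.5 dpp (log2 fold change -3.31, SE 0.8, adjusted p = 0.00206) and Cd2 had 0.296, 0.387 and 0.071 CPM at D30 and 1.78 and 2.14 CPM at 36.5 dpp (log2 fold change -2.96, SE 0.58, adjusted p = 0.000446), whereas Cd8a and Ncr1 were at the floor in both groups. Adipocyte genes had 3 of 9 higher and 3 lower, near the shares over all genes (31% higher and 33.3% lower). Lpl, the lipoprotein lipase that other cells also make, had 21.2, 17.6 and 27.5 CPM at D30 and 1.12 and 0.831 CPM at 36.5 dpp (log2 fold change 4.51, SE 0.4, adjusted p = 7.4e-07), while Adipoq, which defines fat cells, had 1.21, 1.5 and 0.544 CPM at D30 and 33.5 and 21.2 CPM at 36.5 dpp (log2 fold change -4.66, SE 0.64, adjusted p = 2.3e-05). Their summed level was 83 to 102 CPM at D30 and 47.6 to 63.4 CPM at 36.5 dpp. Of 10 genes of mesothelium and simple epithelium 2 were higher and 2 lower, which is no more than over all genes. Their sums were 101 to 128 CPM at D30 and 77.4 to 104 CPM at 36.5 dpp. Msln, the defining mesothelin, had at most 4 counts in any of the 5 libraries. Lrrn4 had 36.8, 32.5 and 34 CPM at D30 and 3.79 and 4.35 CPM at 36.5 dpp (log2 fold change 3.08, SE 0.35, adjusted p = 4.82e-06), and Muc16 had 5.5, 3.76 and 1.61 CPM at D30 and 13.3 and 39.4 CPM at 36.5 dpp (log2 fold change -2.86, SE 0.64, adjusted p = 0.00126).

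Ranked by p rather than by list, the 10 strictly higher genes with the smallest p were Vldlr, Cfi, Rasgef1c, Cd276, Mest, Serping1, Cnn3, Slc4a5, F3 and Slc18b1, with log2 fold changes from 3.09 to 5.72 and adjusted p from 8.3e-08 to 1.12e-07. Mest, an imprinted gene expressed from the paternal allele, had 47.6, 52.6 and 51.8 CPM at D30 and 2.85 and 2.93 CPM at 36.5 dpp (log2 fold change 4.13, SE 0.26, adjusted p = 8.3e-08). F3, the tissue factor that starts coagulation, had 36.4, 38.9 and 46 CPM at D30 and 2.9 and 3.52 CPM at 36.5 dpp (log2 fold change 3.65, SE 0.24, adjusted p = 1.03e-07). Cd276, an immune checkpoint ligand, had 30.8, 24 and 27.2 CPM at D30 and 1.7 and 1.98 CPM at 36.5 dpp (log2 fold change 3.89, SE 0.25, adjusted p = 8.3e-08). For all 3 the groups differed by more than 10-fold with little spread within them, a pattern that the choice by smallest p favours. The 10 strictly lower genes with the smallest p were Cyp17a1, Cacna1a, Hsd17b3, Csnk1g2, Teddm2, Phospho1, Cdyl, Ccsap, Tuba4a and Wnt3. Cacna1a, the pore of the P/Q-type calcium channel, had 5.55, 4.95 and 5.06 CPM at D30 and 40.7 and 55.4 CPM at 36.5 dpp (log2 fold change -3.21, SE 0.2, adjusted p = 8.3e-08). Csnk1g2, a casein kinase, had 167, 132 and 123 CPM at D30 and 959 and 1218 CPM at 36.5 dpp (log2 fold change -2.95, SE 0.19, adjusted p = 8.3e-08). Cdyl, a chromodomain protein of spermatid chromatin, had 90.1, 82.2 and 79.2 CPM at D30 and 394 and 381 CPM at 36.5 dpp (log2 fold change -2.21, SE 0.15, adjusted p = 1.4e-07). Their explant levels varied less than those of the protamines, but a choice by smallest p favours genes with little spread within groups. Phospho1, a phosphatase known from mineralising bone, had 1.21, 0.825 and 1.11 CPM at D30 and 17.6 and 19.2 CPM at 36.5 dpp (log2 fold change -4.13, SE 0.28, adjusted p = 1.26e-07). Teddm2 had 2.32, 0.928 and 1.4 CPM at D30 and 57.7 and 54.1 CPM at 36.5 dpp (log2 fold change -5.17, SE 0.35, adjusted p = 1.26e-07), and Ccsap, a protein of centrioles and cilia, had 15.3, 12.7 and 8.7 CPM at D30 and 133 and 126 CPM at 36.5 dpp (log2 fold change -3.41, SE 0.24, adjusted p = 1.44e-07). Wnt3, a Wnt ligand, fell (5.43, 3.46 and 3.1 CPM at D30 and 44.9 and 53.3 CPM at 36.5 dpp; log2 fold change -3.62, SE 0.26, adjusted p = 1.44e-07), opposite to Wnt4, and so did Tuba4a (31.6, 21 and 19.8 CPM at D30 and 285 and 277 CPM at 36.5 dpp; log2 fold change -3.54, SE 0.25, adjusted p = 1.44e-07).

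Csnk1g2 has more than 1 annotated start, and the promoter before the downstream one held a cAMP response element (capitals, first base at -46), which is why that sequence is shown (RefSeq, GRCm38.p6, plus strand).
Csnk1g2, chr10:80629406-80629655: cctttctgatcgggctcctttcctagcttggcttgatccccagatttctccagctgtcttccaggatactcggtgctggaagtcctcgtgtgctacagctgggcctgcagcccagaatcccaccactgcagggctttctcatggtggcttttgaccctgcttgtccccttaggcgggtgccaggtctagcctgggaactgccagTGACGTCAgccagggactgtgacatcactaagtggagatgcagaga
No searched motif was found before its other listed start at chr10:80622530-80622779.

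By difference of mean level, the strictly lower genes were led by Prm2, Prm1, Odf2, Tnp2, Atp8b3, Akap12, Hk1, Tcp11, Ybx2 and Gapdhs. Of these, Akap12, Odf2 and Hk1 already had mean levels of 373, 88.8 and 71.9 CPM in the 10.5 dpp testis. The others had 12.8 CPM (Ybx2) or less there. Hk1, a hexokinase with a form bound to the fibrous sheath, had 407, 241 and 149 CPM at D30 and 1791 and 4011 CPM at 36.5 dpp (log2 fold change -3.45, SE 0.48, adjusted p = 2.68e-05). Akap12, a kinase scaffold, had 1050.2, 627 and 673 CPM at D30 and 1973 and 5259 CPM at 36.5 dpp (log2 fold change -2.21, SE 0.42, adjusted p = 0.000363). Both were more than 2-fold higher in the second 36.5 dpp library than in the first. Ybx2, which stores messages in germ cells, was even between them (837, 875 and 282 CPM at D30 and 3136 and 2616 CPM at 36.5 dpp; log2 fold change -2.11, SE 0.42, adjusted p = 0.000526). The strictly higher genes with the largest differences included Clu, Sparc, Psap, Maged1, Cpe, Serpina5, Cldn11, Vim and Cst12. Psap, the precursor of the saposins, had 1649.8, 1346 and 2033 CPM at D30 and 294 and 431 CPM at 36.5 dpp (log2 fold change 2.21, SE 0.26, adjusted p = 6.19e-06). Cpe, a carboxypeptidase of peptide hormones, had 1032, 1133 and 1227 CPM at D30 and 161 and 158 CPM at 36.5 dpp (log2 fold change 2.82, SE 0.26, adjusted p = 1.08e-06). Serpina5, a protease inhibitor of the male tract, had 941, 872 and 1049 CPM at D30 and 206 and 198 CPM at 36.5 dpp (log2 fold change 2.24, SE 0.3, adjusted p = 1.85e-05). Maged1, on the X chromosome, had 1171, 1031 and 1733 CPM at D30 and 203 and 238 CPM at 36.5 dpp (log2 fold change 2.57, SE 0.28, adjusted p = 3.44e-06).

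The X chromosome, which is silenced in pachytene spermatocytes and stays largely repressed in spermatids, stood apart. Of 824 tested X-linked genes 420 (51%) were higher and 190 (23.1%) lower with the broad call, and the median log2 fold change was 1.13. Of 18871 autosomal genes 30.1% were higher and 33.7% lower, with a median of -0.068. No single autosome had more than 32.2% higher. The Y chromosome, with 30 tested genes, departed the other way, with 16.7% higher, 46.7% lower and a median of -2.73. With the strict call 134 X-linked genes (16.3%) were higher and 41 (4.98%) lower, against 6.84% and 9.53% of autosomal genes. The share of all counts on the X was 2.5%, 2.69% and 3.46% at D30 and 1.49% and 1.16% at 36.5 dpp, without overlap, and 3.24% in the D30 CSF library. With RLE factors 44.8% of X-linked and 24.2% of autosomal genes were higher, and with the library total alone 59.5% and 42.9%.

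**Figure D4:**
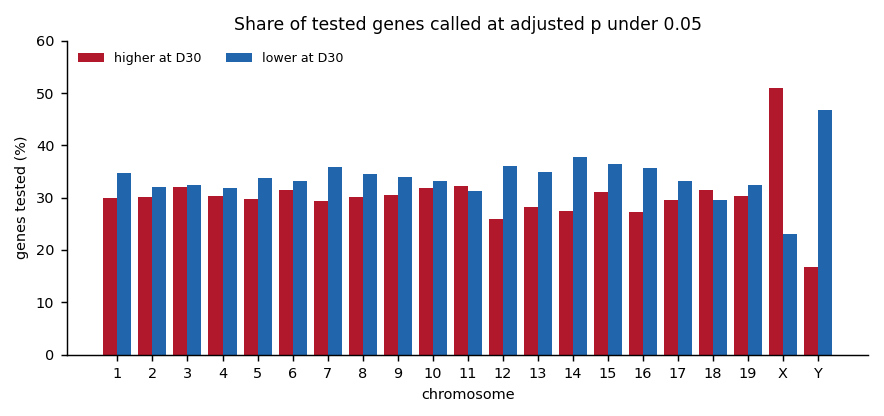
Share of tested genes on each chromosome that were higher (red) or lower (blue) at D30 with the broad call, in percent. The X chromosome, at 51% higher, lies above every autosome, the highest of which reached 32.2%.

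Gene names also differed between the directions. Of the strictly lower genes 1410 were protein-coding, 400 long noncoding RNAs and 33 of other types, and 504 (27.3%) had predicted or clone names. Of the strictly higher genes 1393 were protein-coding, 28 long noncoding and 5 of other types, and 39 (2.73%) had such names, beside 12.1% of all genes tested. No share of the gene types over all tested genes is given, so the counts by type have no background.

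The single D30 CSF library, from tissue frozen before culture, was not part of the contrast. It lay on the same side of both 36.5 dpp libraries as the fresh explants for all 1426 strictly higher genes and for 1842 of the 1843 strictly lower ones. It was within the range of the fresh explants for 895 and 1106 of them. All these genes had been chosen for large differences between fresh D30 explants and 36.5 dpp. The counts have no background, as no share over all tested genes is given for this library. As 1 library it has no replicate check, and it had 139 CPM of Prm2, 5379 CPM of Clu and 408 CPM of Igfbp3.

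The difference at D30 was finally set against the same difference at the previous stage, D16 explants (2 libraries) against the 22.5 dpp testis (3 libraries), by testing the difference of the contrasts. With the strict call 25 genes (0.127%) had a larger value at D30 and 174 (0.881%) a smaller one. Of the genes strictly lower at D30, 136 were among the 174, and 19 of the strictly higher ones were among the 25. Over all genes tested, 9.33% were strictly lower and 7.22% strictly higher. The difference between stages contains the same contrast of D30 with 36.5 dpp, so this overlap is no independent result. Phospho1 had 1.18 ± 0.413 CPM at D16 and 0.315 ± 0.0745 CPM at 22.5 dpp (SD, n = 2 and 3), so that it was above the age-matched testis at D16 and below it at D30. The difference of its log2 fold changes was -6.02 (SE 0.41, adjusted p = 1.35e-06). Cdyl showed the same turn, from 60.6 ± 10.1 CPM against 32.2 ± 2.34 CPM at the earlier stage, with a difference of -3.12 (SE 0.22, adjusted p = 1.35e-06). In both genes the in vivo level was far higher at 36.5 dpp than at 22.5 dpp, while the explant levels of the stages lay close together. Cxxc5, a zinc finger protein, had a difference of -3.28 (SE 0.24, adjusted p = 2.41e-06).

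The genes with the smallest p among those larger at D30 were Slc4a5, a bicarbonate transporter, Ces2g, a carboxylesterase, and Col18a1, the collagen that yields endostatin. Col18a1 had 272 ± 12 CPM at D16 and 248 ± 33.6 CPM at 22.5 dpp, then 275, 179.8 and 235 CPM at D30 and 23.2 and 23.6 CPM at 36.5 dpp. The explant levels were alike at both stages while the in vivo level was lower at 36.5 dpp, and the difference was 3.17 (SE 0.34, adjusted p = 4.45e-05). For Slc4a5 it was 2.75 (SE 0.29, adjusted p = 3.7e-05) and for Ces2g 2.59 (SE 0.28, adjusted p = 3.72e-05). By contrast, Igfbp3 was far above the testis in vivo at both stages, with a difference of -0.62 (SE 0.46, adjusted p = 0.363). Cyp17a1 was likewise below it at both, with 13.5 ± 1.73 CPM at D16, 337 ± 70.7 CPM at 22.5 dpp and a difference of -0.46 (SE 0.4, adjusted p = 0.44).

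**Figure D5:**
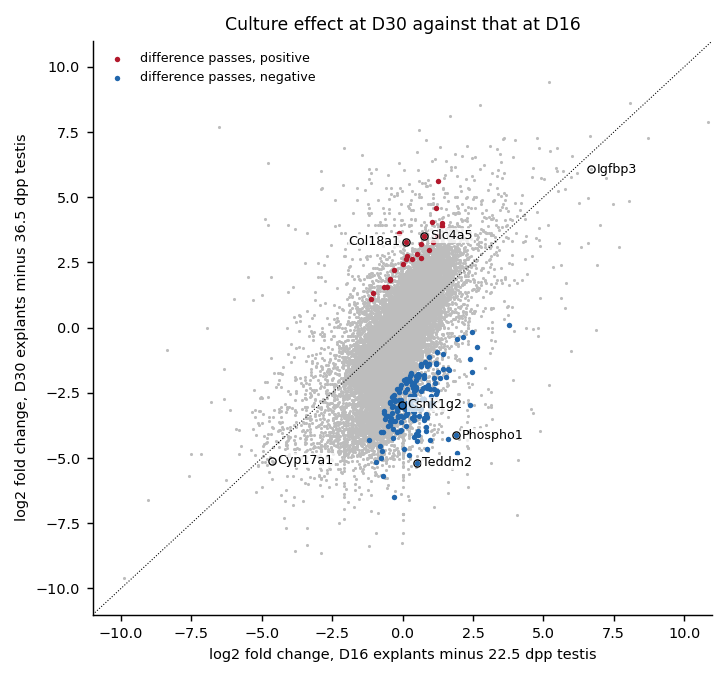
Log2 fold change of D16 over 22.5 dpp (x axis) against that of D30 over 36.5 dpp (y axis) for the genes tested, with the 25 genes of strictly larger and the 174 of strictly smaller value at D30 coloured. Genes on the diagonal had the same difference at both stages, and most coloured genes lie below it.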

How the data were processed

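Whole-transcriptome RNA was measured by stranded poly(A) single-read sequencing. The authors aligned reads to GRCm38 and deposited raw counts per gene, with bcl2fastq 2.17.1.14, STAR 2.7.3a and HTSeq 0.12.4 named in the submitters' processing notes. The strand setting of HTSeq is not given in the sources used here, so counts of overlapping and antisense genes are uncertain. No column of fold changes or p-values was used.

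The table held 27466 genes in 23 columns, of which 2 of 6.5 dpp had identical values and were counted as 1 library. edgeR 4.0.16 (R 4.3.3) was run with TMM factors, filterByExpr and its quasi-likelihood F test on 21 libraries with a mean per group, leaving out 6.5 dpp fresh replicate 1, with 12 residual degrees of freedom. The SE of a log2 fold change was its size divided by the square root of F. DESeq2 1.42.0, other scalings, filters, sample sets and thresholds, and leaving out each library, were the alternatives. A group was at the floor when each of its libraries had at most 3 counts. Intervals from counting were not needed beside replicate libraries, and floors cover counting error only.

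The members and the 38 gene lists (659 of 666 entries matched the table) were chosen with earlier results of these data known. Named genes were the 10 with the smallest p and the 10 with the largest difference of mean level in each direction among strict calls, the study's 10, the defining members of each list with the 2 called members of smallest p per direction, and the 3 of smallest p per direction of the stage difference. Further members (among them Tnp1, Prm3, Odf1, Crem, Rfx2, Ret, Amh, Gdnf, Kitl, Mmp12, Igfbp5, Igf1, Pappa2, Cyp26b1, Rara, C3, Ccl2, Cxcl1, Nfkb1, Rsad2, Ifit1, Adm, Cdkn1a and Pdha2) were named after their values were seen. A few genes that the rule names are not reported here. Promoters came from RefSeq tables of GRCm38.p6.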

Additional observations from a re-analysis of the deposited data

Results flagged for a closer look

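The contrast of explants with the age-matched testis differed between D30 and D16 by a test of the difference itself (edgeR's quasi-likelihood F test, Benjamini-Hochberg adjusted) for 25 genes with a larger and 174 with a smaller value at D30. Among named genes the log2 difference between the stages was larger at D30 for Cd276 (2.49), Serping1 (2.30), Slc4a5 (2.75), Ces2g (2.59), Col18a1 (3.17), Cx3cl1 (2.51) and Plat (2.30). It was smaller at D30 for Cacna1a (-2.56), Hsd17b3 (-4.21), Csnk1g2 (-2.93), Teddm2 (-5.67), Phospho1 (-6.02), Cdyl (-3.12), Ccsap (-3.99), Tuba4a (-3.95), Wnt3 (-3.56), Cxxc5 (-3.28), Srxn1 (-2.56) and Tssk6 (-4.00). The groups of 3 and 2 libraries were too small for the test of a library that stands apart.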

How the results depend on the processing

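Of 194 named genes 163 kept their direction and call under every alternative, and of 38 gene lists 32 kept the sign of their median. With the library total alone all list medians were higher than in the main values, 36 of them without a change of sign. Calls were lost with the library total alone for Cfap65, Dnah2, Egr4, F13a1, Hsd3b1, Ldha, Mdm2, Nanos3, Postn, Star and Tek. In the 5 libraries compared they were lost for Aldoa, Cfap65, Dnah2, Egr4, F13a1, Hsd3b1, Ldha, Mdm2, Nanos3, Postn and Star. With 6.5 dpp fresh replicate 1 kept they were lost for Acr, Atp8b3, Cfap65, Dnah2, Egr4, F13a1, Hsd3b1, Hspa2, Nanos3, Pdha2, Rfx2, Spag6l, Star and Ybx2. Leaving out 1 library also ended the calls of Ifit1 and Pgk1 (36.5 dpp replicate 2), and grouping the frozen library with the fresh ones that of Mx1. Piwil1 was called lower with RLE factors, with DESeq2, with the frozen library grouped, and without 36.5 dpp replicate 1 or D30 replicate 1. The 1426 strictly higher genes became 922 with RLE factors, 3164 with the library total alone, 628 in a fit of the 5 libraries compared, 4866 at thresholds of 1 for the log2 fold change and 0.05 for the adjusted p, and 2382 at 1.5 and 0.001. The 1843 strictly lower genes became 1106 with the library total alone, 2782 with DESeq2, 1053 with 6.5 dpp fresh replicate 1 kept and 5675 at the threshold of 1 and 0.05. Leaving out 1 library at a time gave 845 to 1551 strictly higher and 969 to 1398 strictly lower genes, with 845 and 1110 without 36.5 dpp replicate 1, 969 lower without 36.5 dpp replicate 2 and 1052 lower without D30 replicate 3. The 6574 broadly lower genes became 4377 with the library total alone. With 1 library of 36.5 dpp left, that library was assumed to vary like the other groups.

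The 25 genes larger at D30 than at D16 became 68 with the library total alone, 115 with DESeq2, 48 with fresh libraries only, 9 with 6.5 dpp fresh replicate 1 kept, 41 with frozen and fresh D30 libraries grouped, and 6 to 11 without 1 of the 5 libraries, the lowest without 36.5 dpp replicate 1. The 174 smaller ones became 85 with the library total alone, 525 with DESeq2, and 94 to 142 without 1 library (105 and 103 without 36.5 dpp replicates 1 and 2, and 94 without D30 replicate 2).

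No label says that a replicate number marks a shared animal, litter or batch, so the numbers were not taken as pairs. The deviations of same-numbered libraries from their group means correlated at -0.215 and -0.449. With 2 libraries at 36.5 dpp, their deviations mirror each other. The value of 0.449 for D30 replicate 2 with 36.5 dpp replicate 1 therefore repeats the -0.449 with its sign changed. These correlations cannot decide whether the libraries are paired. With the replicate number as a block the strict calls were 1356 higher and 1488 lower, and 7 and 87 for the difference between stages.

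List medians changed sign for meiotic prophase (0.36 with the library total alone, and -0.473 to 0.0676 without 1 library, the highest without D30 replicate 3), cholesterol (0.578 with the library total alone, 0.0317 with a minimum of 1 CPM, 0.107 in 5 libraries, 0.0538 with frozen grouped, and -0.0545 to 0.125 without 1 library, with 0.00782 without D30 replicate 2), adipocytes (-0.168 with RLE factors, -0.167 with DESeq2, and -0.515 to 0.311 without 1 library, the lowest without 36.5 dpp replicate 1), mesothelium (-0.338 with a minimum of 1 CPM), antioxidant genes (-0.0705 with RLE factors and with DESeq2, and -0.0495 to 0.704 without 1 library, the lowest without 36.5 dpp replicate 2) and cell division (-0.259 with RLE factors and with DESeq2, and -0.0952 to 0.24 without 1 library, the lowest without D30 replicate 2). Single genes changed sign for Aldoa (0.10), Gfra1 (0.40) and Rhox5 (0.45) with the library total alone, for Cst9 (-0.42) and Rhox5 (0.16) without D30 replicate 3 and for Msln (-0.45) without 36.5 dpp replicate 2, where the ranges without 1 library were -0.42 to 0.85, -0.38 to 0.16 and -0.45 to 4.60. The cause of these changes was not tested.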
